A study of Homo sapiens with 6 samples.

Results

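The genes described here are 37 regulators of the step from G2 into mitosis and of cytokinesis, the division of the cell body that follows. They were taken by symbol from a fixed list, which was chosen with earlier results of these data known. All 37 were found, once each, among the 60589 genes of the deposited table. All 37 also reached a mean of at least 1 TPM over the 6 libraries, the minimum for testing, as did 14790 genes in all. TPM is transcript abundance corrected for transcript length and scaled to a fixed total per library, so that levels of different genes can be set side by side. The libraries come from SNU449, a cell line from a human hepatocellular carcinoma, collected at day 3 after a control siRNA (siControl, n = 3) or an siRNA named for MAD2L1 (siMAD2L1, n = 3). An siRNA is a short double-stranded RNA that directs the cleavage of a matching mRNA, and MAD2L1 encodes a spindle checkpoint protein. The titles of all 3 siMAD2L1 libraries name MAD2L1, while the treatment field names MAD2L1, MAD2L2 and MAD2L3 for replicates 1, 2 and 3. The series design states only that MAD2L1 was knocked down, in a study of its function in liver cancer.

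A cell enters mitosis when CDK1, bound to cyclin B, is switched on. CDC25 phosphatases remove the phosphates by which the kinases WEE1 and PKMYT1 hold CDK1 back, and PLK1 and Aurora A push the same switch forward. Aurora A, PLK1 and their partners then build the spindle, and once the chromosomes part, PRC1, centralspindlin and ECT2 place the contractile ring that anillin and citron kinase help to close. Many of these genes are transcribed late in the cell cycle, held down by the DREAM complex in resting cells and driven in G2 by B-MYB (MYBL2) and FOXM1. In bulk RNA, fewer cells in G2 and mitosis and less RNA in each such cell cannot be told apart.

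MAD2L1 measured 14.5, 13.7 and 13.9 TPM in siControl and 4.47, 0.795 and 2.40 TPM in the siMAD2L1 replicates, lowest in replicate 2 and highest in replicate 1. The groups did not overlap (log2 fold change -2.22, adjusted p = 0.0105 by the limma test described below), but MAD2L1 did not pass on dropping siControl replicate 1, 2 or 3 (adjusted p = 0.0597, 0.0547 and 0.0572). MAD2L2 measured 150.1, 145.7 and 137.9 TPM in siControl and 123.4, 154 and 137.9 TPM in siMAD2L1, where the groups overlapped (adjusted p = 0.698). Of the hepatocyte markers, APOB and TTR were listed at 0 in every library and ALB lay between 0.122 and 0.451 TPM, whereas VIM, a mesenchymal filament gene, lay between 9128 and 11150 TPM and KRT18, an epithelial keratin, averaged 194 TPM in siControl and 133 TPM in siMAD2L1. KRT8, a second epithelial keratin, averaged 221.5 TPM in siControl and 163.2 TPM in siMAD2L1. The other epithelial markers, KRT19, EPCAM and CDH1, did not exceed 1.473 TPM in any library. FGB, another hepatocyte gene, averaged 7.42 TPM in siControl and 2.77 TPM in siMAD2L1. The leukocyte marker CD3E was listed at 0 throughout and PTPRC at 0.060 TPM or less. CD68, a lysosomal protein gene also expressed outside macrophages, averaged 65.8 TPM in siControl and 137.5 TPM in siMAD2L1, and CD14 lay between 2.90 and 11.3 TPM, lower in every siMAD2L1 library than in every control. The part of these shifts in the results was not tested. None of the 4 endothelial markers exceeded 0.977 TPM.

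Promoters of this kind of gene are known to carry CCAAT boxes, bound by NF-Y, and a cell cycle genes homology region (CHR), through which MuvB complexes act. Promoter windows of 300 bases, from 250 before to 50 after the annotated start, were found for 30 of the 37 members (RefSeq, GRCh38.p14). WEE1, PKMYT1, FOXM1, AURKA, TPX2, CDCA2 and RACGAP1 were not among them. Where a gene had several windows, only the first listed was used, for members and for all genes alike. The windows were searched on both strands for CCAAT and for the CHR forms TTTGAA and TTCGAA. They were also searched for the E2F forms TTTGGCGC, TTTGCCGC, TTTCGCGC and TTTCCCGC. A CCAAT box was present in 24 of 30 windows (80%), against 35.7% of the windows of 27305 genes, and at least 2 were present in 16 (53.3%, against 11.3%). A CHR form was present in 19 (63.3%, against 16.6%), a CCAAT box together with a CHR form in 18 (60%, against 6.58%), and an E2F form in 3 (10%, against 3.33%). In 1 window, that of MKI67, a CCAAT box and a CHR form share bases.

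The 120 bases before the annotated start are shown for 10 members. These are CCNB1 and the 9 members with a CHR form centred within the 50 bases before the start. They do not represent the other windows of members that fell or did not pass. The first 7 fell in siMAD2L1 and the last 3 did not pass the test. Capitals mark CCAAT boxes (CCAAT or its reverse complement ATTGG) and CHR forms (TTTGAA or its reverse complement TTCAAA), longer runs of capitals being motifs that touch or overlap, and each sequence reads 5′ to 3′ on the strand given.
CCNB1, chr5:69167030-69167149 (+): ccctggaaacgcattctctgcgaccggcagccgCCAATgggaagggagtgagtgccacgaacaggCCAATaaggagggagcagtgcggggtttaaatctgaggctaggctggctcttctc
CCNB2, chr15:59105026-59105145 (+): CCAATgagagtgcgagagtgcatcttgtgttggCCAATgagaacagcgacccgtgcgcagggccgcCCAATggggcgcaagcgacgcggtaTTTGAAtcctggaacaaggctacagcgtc
CKS1B, chr1:154974561-154974680 (+): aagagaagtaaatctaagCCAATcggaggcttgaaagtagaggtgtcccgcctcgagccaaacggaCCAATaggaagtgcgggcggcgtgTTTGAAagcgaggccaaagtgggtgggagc
CKS2, chr9:89311075-89311194 (+): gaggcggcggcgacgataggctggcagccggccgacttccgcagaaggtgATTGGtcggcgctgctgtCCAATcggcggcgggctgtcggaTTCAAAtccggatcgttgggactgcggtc
PLK1, chr16:23678769-23678888 (+): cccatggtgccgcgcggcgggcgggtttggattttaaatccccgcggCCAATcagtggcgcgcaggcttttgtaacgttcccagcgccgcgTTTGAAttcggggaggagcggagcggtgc
PRC1, chr15:90994536-90994655 (-): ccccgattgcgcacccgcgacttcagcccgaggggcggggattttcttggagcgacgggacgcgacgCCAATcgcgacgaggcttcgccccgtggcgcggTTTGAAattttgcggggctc
MKI67, chr10:128126424-128126543 (-): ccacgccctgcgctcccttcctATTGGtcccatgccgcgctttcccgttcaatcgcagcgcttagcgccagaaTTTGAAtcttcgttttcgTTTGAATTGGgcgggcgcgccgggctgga
HMMR, chr5:163460512-163460631 (+): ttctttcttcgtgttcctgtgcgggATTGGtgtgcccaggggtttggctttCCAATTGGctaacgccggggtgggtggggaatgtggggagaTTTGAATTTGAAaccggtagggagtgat
GTSE1, chr22:46296750-46296869 (+): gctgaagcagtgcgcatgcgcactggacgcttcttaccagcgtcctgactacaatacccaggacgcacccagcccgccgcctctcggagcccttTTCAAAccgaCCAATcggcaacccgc
ANLN, chr7:36389742-36389861 (+): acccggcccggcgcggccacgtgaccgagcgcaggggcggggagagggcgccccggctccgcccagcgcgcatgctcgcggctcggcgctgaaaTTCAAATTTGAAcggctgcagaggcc
In CCNB2, CKS1B, CKS2 and PLK1 the CHR is centred 26, 27, 26 and 26 bases before the start, and the nearest CCAAT box 52, 52, 50 and 71 bases before it. CCNB1 has 2 CCAAT boxes whose centres lie 32 bases apart and no match to TTTGAA or TTCGAA in its window. No other CHR sequence was searched for, so a window without a match, here or in the counts, is not shown to lack a CHR. In CCNB2 the 3 boxes nearest the start lie 33 bases apart from centre to centre. In GTSE1 the CCAAT box lies between the CHR and the start, and ANLN has CHR forms and no CCAAT box. A CHR centred within the 50 bases before the start, a window chosen after the positions were seen, occurred in 9 of 30 members (30%) and in 2.64% of all genes. Of the members called lower below, 10 of 13 with a window held a CCAAT box and 7 held a CHR form. Of those not called, 14 of 17 and 12 of 17 did. These counts depend on the window used. CDC25B and CDC25C, both called and without either motif in the first, have 4 listed windows each, and CDK1, PTTG1 and ECT2 have 2 each. The CHR within 50 bases of the start occurred in 6 of 13 called (46.2%) and 3 of 17 not called (17.6%), a difference that was not tested. A match to these letters is a description of the sequence and was not tested as a binding site.

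**Figure D1:**
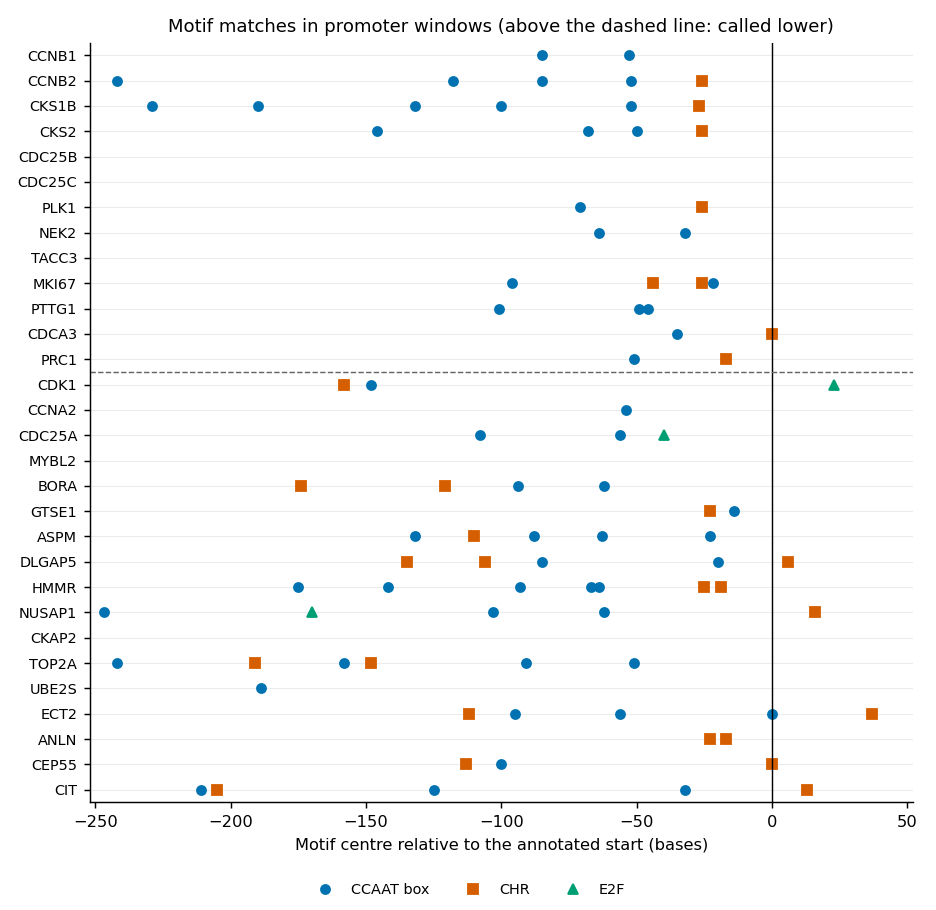
Centres of CCAAT boxes, CHR forms and E2F forms (x axis, bases from the annotated start, marked by the vertical line) in the promoter windows of 30 members (rows; members called lower stand above the dashed line). CHR squares of 9 members lie within the 50 bases before the start, and 24 of 30 rows hold at least 1 CCAAT circle.

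Of the 37 members, 17 fell in siMAD2L1 and none rose (limma-trend on log2(TPM + 1), Benjamini-Hochberg adjusted p under 0.05 over all 14790 genes). That is 45.9% of the members, where 6.23% of all genes tested were called lower and 3.55% higher (9.78% in either direction). Because the members were chosen with earlier results of these data known, these shares describe the list and are not an independent test. At an unadjusted p under 0.05, 23 members were lower and 0 higher, where the shares of all genes tested were 17.4% lower and 8.91% higher. Cyclin B, PLK1, Aurora A, securin, PRC1 and the centralspindlin subunit RACGAP1 were among those that fell, to between 54.6% and 59.9% of their siControl means. The partner kinase CDK1, cyclin A2, WEE1, MYBL2, ECT2 and anillin were among the 20 that did not pass. The members' median log2 fold change was -0.51, against -0.08 over all genes tested, and 33 of 37 were negative, as were 59.9% of all genes tested. In 23 members (62.2%) every siMAD2L1 library lay below every siControl library, as it did at 21.5% of all genes tested. For a single gene with 3 libraries against 3, an exact permutation test cannot go below p = 0.1.

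**Figure D2:**
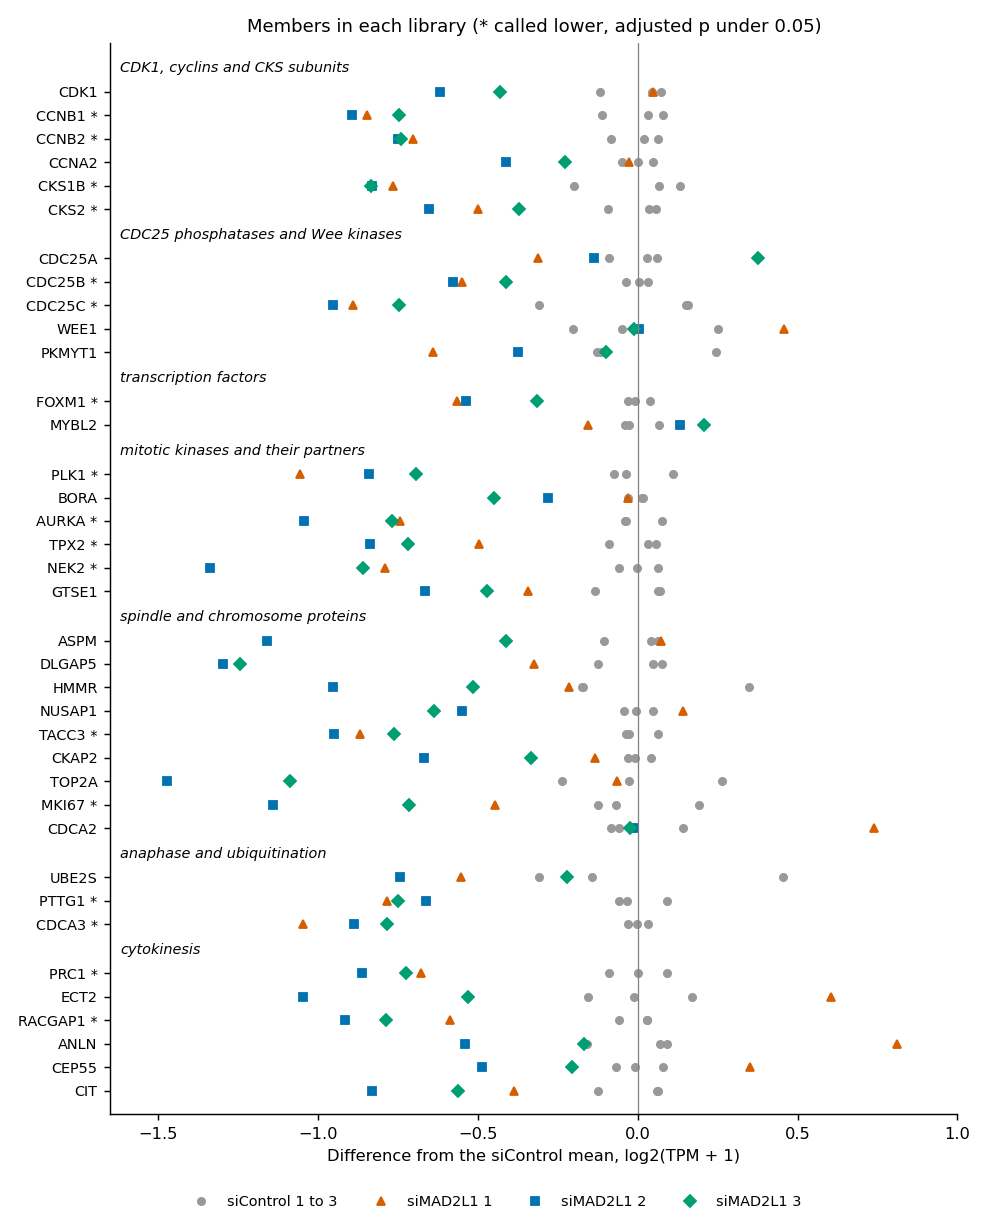
Difference of each library from the siControl mean in log2(TPM + 1) (x axis) for all 37 members (rows, by role). Grey circles are siControl libraries and coloured symbols siMAD2L1 libraries. CCNB1, CCNB2, CKS1B, PTTG1 and TACC3 show 3 siMAD2L1 symbols close together and left of the controls, while ECT2 and ANLN have replicate 1 to the right of the controls and replicate 2 to the left.

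The levels in siControl spanned from 1.61 ± 0.0475 TPM for BORA to 240 ± 28.3 TPM for CKS1B (SD, n = 3). CKS1B, CKS2 (236 ± 13.1) and the ubiquitin-conjugating enzyme gene UBE2S (227 ± 67.0) stood at the top and did not differ beyond their spread. MYBL2 (172 ± 7.14), PTTG1 (148 ± 8.55), CDC25B (114 ± 2.75) and CCNB1 (108 ± 7.36) followed. MYBL2 overlapped UBE2S, and CDC25B and CCNB1 were within their spread. At the low end, BORA and HMMR (2.69 ± 0.808 TPM) lay below CKAP2 (4.16 ± 0.130) and ASPM (4.07 ± 0.315), which did not differ from each other beyond their spread. The 37 values summed to 2260, 2187 and 2373 TPM in siControl and to 1651, 1429 and 1636 TPM in siMAD2L1 replicates 1, 2 and 3, so the sums did not overlap.

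Of CDK1, its cyclins and the CKS subunits 4 of 6 fell and all 6 values were negative. For this and the role groups that follow, 6.23% of all genes tested were called lower and 59.9% were negative. CCNB1, which encodes cyclin B1 (ENSG00000134057, chr5:69167010-69178245, plus strand, GENCODE 29 on GRCh38), measured 110, 99.3 and 114 TPM in siControl and 59.2, 57.3 and 63.6 TPM in siMAD2L1. Every siMAD2L1 library lay well below every siControl library, and the siMAD2L1 libraries lay closer together than the controls did. This is a log2 fold change of -0.83 (SE 0.0862, adjusted p = 0.00222). CCNB2, the second B-type cyclin, measured 54.4, 50.5 and 56.0 against 32.6, 31.5 and 31.7 TPM, again without overlap (-0.73, SE 0.0849, adjusted p = 0.00344). CKS1B and CKS2 encode small subunits that bind CDK1 and help it to phosphorylate its substrates. CKS1B measured 249.5, 208 and 262 TPM in siControl and 139.9, 133.5 and 133.2 TPM in siMAD2L1 (-0.81, adjusted p = 0.00373). CKS2 fell less, from 236 to 166 TPM (-0.51, adjusted p = 0.0152). It did not pass on dropping siControl replicate 1 (adjusted p = 0.0815) or 3 (0.0735). With a transcript-length trend removed (0.0612) and with limma without trend (0.0555) it did not pass either.

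CDK1 itself measured 53.3, 47.5 and 54.3 TPM in siControl against 53.3, 33.2 and 37.99 TPM after MAD2L1 knockdown. Replicate 1 lay inside the range of the controls and the other siMAD2L1 libraries below it (log2 fold change -0.34, adjusted p = 0.245). Without siMAD2L1 replicate 1 its value was -0.53 and it passed (adjusted p = 0.0174). Cyclin A2, CCNA2, which serves both S phase and early mitosis, measured 19.2, 19.9 and 20.6 TPM against 19.5, 14.7 and 16.8 TPM (-0.22, adjusted p = 0.306), and did not pass without siMAD2L1 replicate 1 either (-0.32, adjusted p = 0.0771). The ratio of CCNB1 to CDK1, chosen after the values were seen and not tested, was 2.06, 2.09 and 2.09 in siControl and 1.11, 1.72 and 1.67 in siMAD2L1. The ratio of CCNB1 to CCNB2 stood at 2.00 ± 0.0335 and 1.88 ± 0.108 (SD, n = 3 each).

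**Figure D3:**
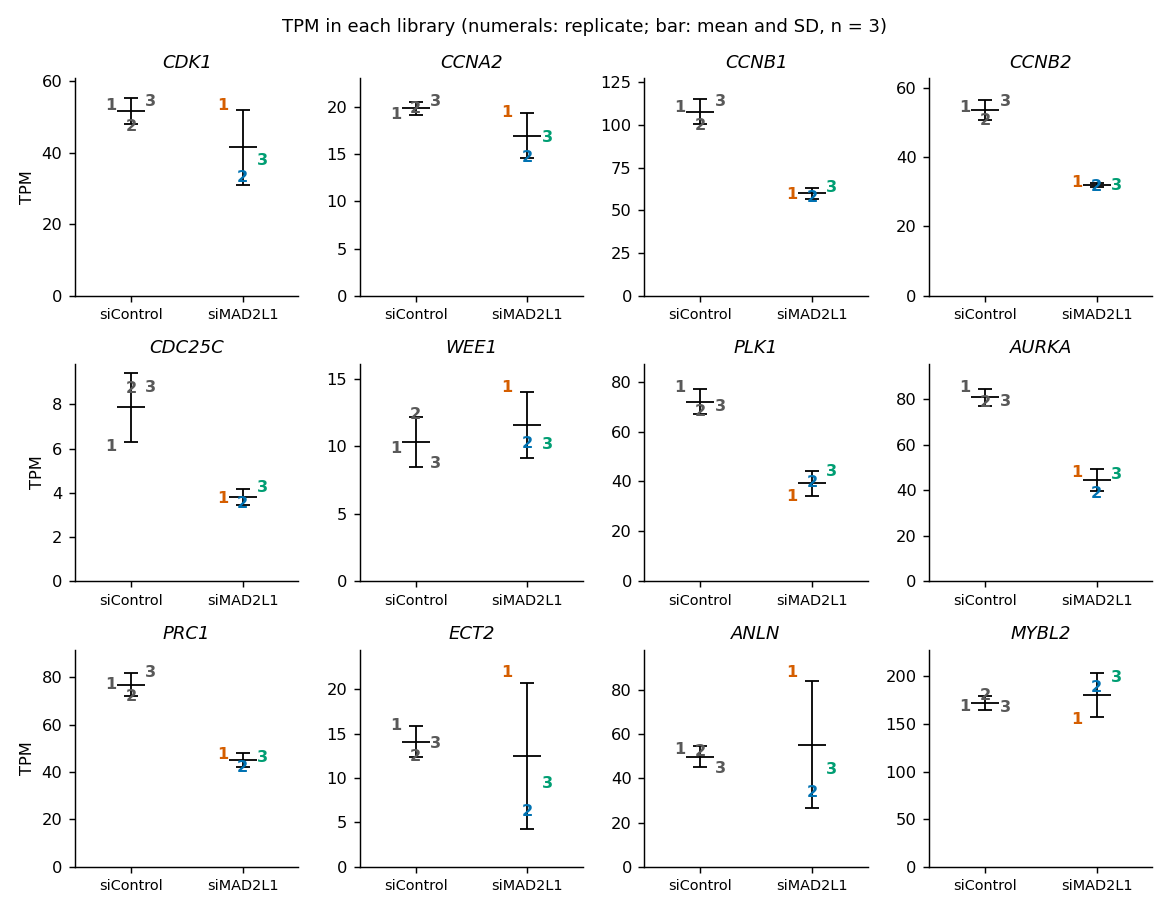
TPM (y axis, from 0) of 12 members in each siControl and siMAD2L1 library, with numerals for the replicate and a bar for the mean and SD (n = 3). CCNB1, CCNB2, PLK1, AURKA, PRC1 and CDC25C separate the groups in every library, whereas siMAD2L1 replicate 1 lies inside the control range at CDK1 and CCNA2 and above it at WEE1, ECT2 and ANLN.

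Among the enzymes that set the phosphorylation of CDK1, the CDC25 genes did not move alike. CDC25B, which starts CDK1 activation at the centrosome, measured 114, 116 and 111 TPM in siControl and 77.3, 75.8 and 85.2 TPM in siMAD2L1 (log2 fold change -0.51, SE 0.0782, adjusted p = 0.00838, and 0.0582 without siControl replicate 1). CDC25C measured 6.08, 8.74 and 8.77 against 3.73, 3.53 and 4.22 TPM (-0.86, SE 0.180, adjusted p = 0.0252). The groups did not overlap at either gene, but the lowest control value of CDC25C was set by siControl replicate 1. CDC25C stayed below the threshold in 2 of 6 leave-one-out fits (highest adjusted p 0.114, on dropping siControl replicate 3). Its exons share 293 bases with FAM53C on the opposite strand, which averaged 18.1 TPM, and since the strand setting is not given in the sources used here its value is uncertain.

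CDC25A, a phosphatase induced at the entry into S phase, did not pass. It measured 4.96, 4.37 and 4.82 TPM in siControl and 3.60, 4.19 and 6.42 TPM in siMAD2L1, so that replicate 3 lay above the controls and the others below (log2 fold change -0.02, adjusted p = 0.955). The inhibitory kinases did not pass either. WEE1 measured 9.83, 12.3 and 8.73 TPM against 14.4, 10.2 and 10.1 TPM (0.15, adjusted p = 0.648), and PKMYT1 57.96, 74.6 and 57.4 TPM against 39.97, 48.2 and 58.6 TPM (-0.37, adjusted p = 0.187). In siMAD2L1 replicate 1 WEE1 was above every control and PKMYT1 below every control. PKMYT1 shares 1233 exonic bases with the opposite-strand gene PAQR4 (25.6 TPM on average).

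The transcription factors of this program also parted. FOXM1 measured 60.6, 62.5 and 59.6 TPM in siControl and 40.9, 41.7 and 48.7 TPM in siMAD2L1 (log2 fold change -0.47, SE 0.0945, adjusted p = 0.0217). All siMAD2L1 libraries lay below the controls, but FOXM1 passed in only 2 of 6 leave-one-out fits (highest adjusted p 0.0942, on dropping siControl replicate 1), and FOXM1 shares 781 exonic bases with the opposite-strand gene ITFG2 (4.81 TPM on average). MYBL2, an E2F target that peaks near S phase, measured 169, 180 and 167 TPM against 154, 188 and 199 TPM, with replicate 1 below and replicates 2 and 3 above the controls (0.06, adjusted p = 0.749). With library weights MYBL2 was called higher (0.19, adjusted p = 0.0475), the only member called higher in any of the alternatives that used all 6 libraries.

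Of the 6 mitotic kinases and partners 4 fell. All 6 had every siMAD2L1 library below every control, as did 21.5% of all genes tested. For BORA the margin was only 1.555 TPM in siMAD2L1 replicate 1 against 1.557 TPM in siControl replicate 2. PLK1 (ENSG00000166851, chr16:23677656-23690367, plus strand) measured 77.7, 68.1 and 70.1 TPM in siControl and 34.1, 39.7 and 44.0 TPM in siMAD2L1 (log2 fold change -0.86, SE 0.113, adjusted p = 0.00514). AURKA, which encodes Aurora A (ENSG00000087586, chr20:56369389-56392337, minus strand), measured 85.3, 78.7 and 78.9 TPM against 47.9, 38.7 and 47.0 TPM (-0.85, SE 0.103, adjusted p = 0.00395). NEK2, a kinase that parts the centrosomes, had the most negative value of all members, from 30.2, 28.8 and 27.6 TPM to 16.3, 10.8 and 15.4 TPM (-0.996, SE 0.156, adjusted p = 0.00943). On dropping siControl replicate 1 NEK2 did not pass (adjusted p = 0.0604). PLK1 was lowest in siMAD2L1 replicate 1, and AURKA and NEK2 in replicate 2.

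Their cofactors followed in part. TPX2, which activates Aurora A on spindle microtubules, measured 79.1, 87.8 and 86.3 TPM in siControl and 59.5, 46.7 and 50.8 TPM in siMAD2L1 (-0.69, adjusted p = 0.00917, and 0.0545 without siControl replicate 3). GTSE1, a microtubule-binding protein of G2 and mitosis, lay just outside the threshold (19.95, 20.1 and 17.3 against 14.8, 11.6 and 13.5 TPM, -0.49, adjusted p = 0.0507). BORA, with which Aurora A activates PLK1, measured 1.64, 1.557 and 1.64 against 1.555, 1.15 and 0.911 TPM (-0.25, adjusted p = 0.501). At so low a level the pseudocount of 1 shrinks the difference, and BORA shares 1180 exonic bases with the opposite-strand gene DIS3.

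Of the 9 spindle and chromosome genes 2 fell. TACC3, which with clathrin and CKAP5 braces the kinetochore fibres, measured 63.95, 68.5 and 64.4 TPM in siControl and 35.4, 33.5 and 38.3 TPM in siMAD2L1 (log2 fold change -0.86, SE 0.0881, adjusted p = 0.00210). MKI67, which coats mitotic chromosomes and serves as the Ki-67 proliferation marker, measured 35.3, 36.9 and 44.3 TPM against 28.1, 16.98 and 23.2 TPM (-0.77, SE 0.181, adjusted p = 0.0376). Both groups of both genes were apart. MKI67 lay just inside the threshold and passed in 1 of 6 leave-one-out fits (highest adjusted p 0.140, on dropping siControl replicate 3).

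The other 7 differed in how far replicate 1 stood from replicates 2 and 3. DLGAP5, which stabilises kinetochore microtubules, measured 11.3, 11.5 and 9.90 TPM in siControl and 8.48, 3.83 and 4.01 TPM in siMAD2L1 (-0.96, SE 0.260, adjusted p = 0.0578). TOP2A, the enzyme that untangles sister DNA, measured 25.1, 30.9 and 21.6 TPM against 24.4, 8.58 and 11.5 TPM (-0.88, SE 0.330, adjusted p = 0.139). Without siMAD2L1 replicate 1 both passed, DLGAP5 at -1.27 (adjusted p = 0.00315) and TOP2A at -1.28 (0.00792). ASPM, a spindle pole protein, measured 4.32 TPM in replicate 1, above each control, and 1.27 and 2.81 TPM in replicates 2 and 3, below each control (-0.50, adjusted p = 0.340). NUSAP1, which bundles microtubules, stood at 24.2 TPM in replicate 1 against 21.2 to 22.7 TPM in siControl, and at 14.6 and 13.7 TPM in replicates 2 and 3 (-0.35, adjusted p = 0.313). It shares 1787 exonic bases with AC087721.2 on the same strand, so its reads could have been split.

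CDCA2, which brings protein phosphatase 1 to chromatin as mitosis ends, went the other way in replicate 1, at 32.2 TPM against 17.8 to 20.96 TPM in siControl. In replicates 2 and 3 it measured 18.7 and 18.6 TPM, inside the range of the controls (0.23, adjusted p = 0.519). HMMR and CKAP2, both microtubule-associated, had all siMAD2L1 libraries below all controls without passing (-0.56 and -0.38, adjusted p = 0.228 and 0.254). They measured 2.13, 0.878 and 1.54 TPM and 3.70, 2.25 and 3.09 TPM in siMAD2L1, against 2.22 to 3.63 and 4.05 to 4.30 TPM in siControl.

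Of the 3 genes that act around anaphase and protein breakdown 2 fell. PTTG1, which encodes securin, the inhibitor that keeps separase from cutting cohesin (ENSG00000164611, chr5:160421822-160428744, plus strand), measured 145, 142 and 158 TPM in siControl and 85.6, 93.3 and 87.7 TPM in siMAD2L1 (log2 fold change -0.73, SE 0.0782, adjusted p = 0.00256). CDCA3, linked to the ubiquitination of WEE1, measured 37.3, 38.1 and 39.0 TPM against 17.95, 20.2 and 21.7 TPM (-0.905, SE 0.103, adjusted p = 0.00316). Both showed no overlap and the control spread was small. UBE2S, which extends ubiquitin chains for the anaphase promoting complex, measured 199.8, 178 and 303 TPM against 150.4, 131.7 and 189 TPM, where replicate 3 overlapped the widely spread controls (-0.51, SE 0.207, adjusted p = 0.169).

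Of the 6 cytokinesis genes 2 fell. PRC1, which crosslinks the antiparallel microtubules of the spindle midzone (ENSG00000198901, chr15:90966038-90995629, minus strand), measured 76.8, 72.04 and 81.9 TPM in siControl and 47.6, 41.8 and 46.0 TPM in siMAD2L1 (log2 fold change -0.76, SE 0.0911, adjusted p = 0.00388). RACGAP1, a centralspindlin subunit, measured 37.3, 37.3 and 35.1 TPM against 24.0, 18.9 and 20.8 TPM (-0.76, SE 0.111, adjusted p = 0.00742, and 0.0531 without siControl replicate 1). CIT, citron kinase at the midbody, had no overlap and lay just outside the threshold (10.7, 9.32 and 10.7 against 7.602, 5.32 and 6.62 TPM, -0.59, adjusted p = 0.0543). PRC1 shares 3181 exonic bases with AC068831.7 on the same strand, which averaged 1.84 TPM.

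The remaining cytokinesis genes were split by library. ECT2, the exchange factor that switches on RhoA at the equator, measured 15.9, 12.5 and 13.9 TPM in siControl and 21.9, 6.28 and 9.395 TPM in siMAD2L1. ANLN, the anillin scaffold of the contractile ring, measured 52.9, 52.1 and 44.3 TPM against 87.8, 33.8 and 44.1 TPM, and CEP55, which recruits the abscission machinery, 51.4, 54.7 and 49.3 TPM against 66.4, 36.6 and 44.7 TPM. In each of these, replicate 1 was above all controls and replicates 2 and 3 below all controls. The log2 fold changes of ECT2, ANLN and CEP55 were -0.32 (SE 0.369), 0.03 (SE 0.302) and -0.11 (SE 0.194), at adjusted p of 0.624, 0.957 and 0.754. Without siMAD2L1 replicate 1, ECT2 passed at -0.79 (adjusted p = 0.0326), while ANLN (-0.35, adjusted p = 0.118) and CEP55 (-0.35, adjusted p = 0.0669) did not. The sign of ANLN also turned to -0.01 when mitochondrial genes and the 20 highest genes were left out of the scaling and to -0.19 with library weights.

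Across the members the siMAD2L1 libraries were not alike. The median log2 difference from the siControl mean was -0.45, -0.75 and -0.53 in replicates 1, 2 and 3, against 0.02, -0.15 and -0.12 over all genes tested. In replicate 1, 27 members lay below every control, 7 above and 3 in between. In replicate 2 these counts were 34, 1 and 2, and in replicate 3 they were 31, 2 and 4. Of all genes tested, 34.0%, 49.6% and 46.4% lay below every control in replicates 1, 2 and 3, and 38.2%, 21.9% and 23.5% above. Replicate 2, where MAD2L1 was lowest, was the lowest of all 6 libraries in 25 members (67.6%, against 29.4% of all genes tested). Replicate 1, where MAD2L1 was least reduced, was the highest siMAD2L1 library in 24 members (64.9%, against 53.2% of all genes). With 3 siMAD2L1 libraries, a relation between these ranks and the MAD2L1 level was not tested. The 7 members above every control in replicate 1 (18.9%, against 38.2% of all genes tested) were WEE1, ASPM, NUSAP1, CDCA2, ECT2, ANLN and CEP55.

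The median SD of log2(TPM + 1) among the siMAD2L1 libraries was 0.132 in the 17 called members and 0.351 in the other 20, and in siControl it was 0.0795 and 0.108. A small SD helps a gene to be called, so this describes the call and is not tested. The signed difference of replicate 1 from the mean of replicates 2 and 3 had a median of 0.01 in the called members and 0.49 in the others. In the called members positive and negative values cancelled, from -0.29 at PLK1 to 0.48 at MKI67. The longest annotated transcript had a median of 2781 bases in the called members (range 613 to 12680) and 3107 bases in the others (range 1948 to 10890). Over the 37 members transcript length and the replicate 1 difference had a Spearman rho of 0.372, and over 14360 genes with a length it was 0.275; all genes share the same libraries. With a length trend removed from each library 17 members were lower, 15 of them shared with the main result. The part of transcript length in these differences was not tested.

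**Figure D4:**
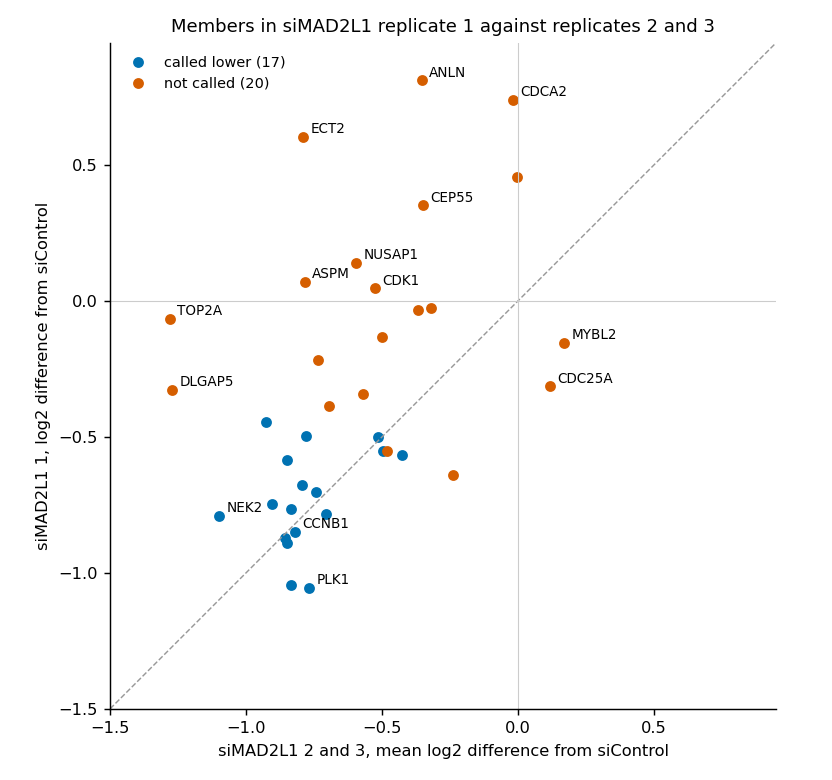
Log2 difference from siControl in siMAD2L1 replicate 1 (y axis) against the mean of replicates 2 and 3 (x axis) for the 17 members called lower and the 20 not called. The dashed line marks equal values. The signed differences of the called members from it, in which those above and below cancel, have a median of 0.01. They run from 0.29 below at PLK1 to 0.48 above at MKI67. Of the members not called, ANLN, ECT2, TOP2A, CDCA2, ASPM and DLGAP5 lie 0.76 or more above it.

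For 9 of the 17 genes the call held in each of the 19 alternatives at the same threshold, the 6 leave-one-out fits included. These were CCNB1, CCNB2, CKS1B, PLK1, AURKA, TACC3, PTTG1, CDCA3 and PRC1. The number of members called lower was 11 without siControl replicate 1 and 24 without siMAD2L1 replicate 1, fits that called 1.27% and 11.5% of all genes tested lower. The 7 members called in addition in the latter fit were CDK1, GTSE1, DLGAP5, NUSAP1, TOP2A, ECT2 and CIT. With siMAD2L1 replicate 1 alone, the only library whose treatment field names MAD2L1, 15 members were called lower (3.75% of all genes tested), and ANLN (0.81) and CDCA2 (0.74) were called higher (4.55% of all genes tested). In that fit the lone library is assumed to vary like the controls.

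Genes that work beside the members were counted in 4 further lists. Of 29 tested genes of G2/M entry control 2 rose (6.90%) and 0 fell by limma, where 3.55% of all genes tested rose and 6.23% fell. At an unadjusted p under 0.05, 3 were lower and 2 higher, where 17.4% of all genes tested were lower and 8.91% higher. The median log2 fold change of the list was -0.07. With library weights 7 of 29 were lower, where 22.6% of all genes tested were. CDKN1A, the CDK inhibitor p21, measured 121, 130 and 114 TPM in siControl and 275, 328 and 307 TPM in siMAD2L1 (1.31, SE 0.0899, adjusted p = 0.000688). SFN, 14-3-3 sigma, which holds cyclin B with CDK1 outside the nucleus, measured 2.52, 4.502 and 1.09 TPM against 8.08, 10.2 and 9.69 TPM (1.58, SE 0.326, adjusted p = 0.0244). It passed in only 2 of 6 leave-one-out fits (highest adjusted p 0.0907, on dropping siControl replicate 1). CCNA1, CCNB3 and RPRM lay below the minimum for testing.

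Of 14 MuvB, DREAM and NF-Y subunits 1 fell, RBBP4, a histone-binding subunit, from 77.4 to 54.3 TPM (-0.51, adjusted p = 0.0380). This share of 7.14% is near the 6.23% of all genes tested. RBBP4 passed in 1 of 6 leave-one-out fits (highest adjusted p 0.150, on dropping siControl replicate 1). Without siMAD2L1 replicate 1, 4 of the 14 subunits were called lower, in a fit that called 11.5% of all genes tested lower. Of 29 spindle assembly genes 3 fell, NEK9, a kinase upstream of NEK6 and NEK7 (-0.65, adjusted p = 0.0199), TACC2, a relative of TACC3 (-0.64, adjusted p = 0.00712), and RCC1, the exchange factor for Ran (-0.38, adjusted p = 0.0446). Without siControl replicate 1 none of the 3 passed, with adjusted p of 0.0974 for NEK9 and 0.0539 for TACC2. TACC2 passed in 5 of 6 leave-one-out fits, but NEK9 and RCC1 in only 1 each. The highest adjusted p of RCC1 was 0.148, on dropping siControl replicate 3. Their list had a median of -0.18 and 10.3% of it called lower.

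Of 34 further genes of the cytokinesis machinery 2 fell (5.88%, near the 6.23% of all genes tested) and 4 rose (11.8%, where 3.55% of all genes did), at a median of 0.06. KIF20A, a kinesin that carries mitotic kinases to the midzone, measured 19.5, 18.8 and 18.9 TPM in siControl and 7.70, 7.13 and 7.58 TPM in siMAD2L1 (-1.24, SE 0.110, adjusted p = 0.00143), a value more negative than that of any member. SEPTIN9, a septin filament subunit, fell from 268 to 174 TPM (-0.62, adjusted p = 0.00498). The rises were small, in the vesicle traffic GTPases RAB35 (0.39, adjusted p = 0.0304) and ARF6 (0.37, adjusted p = 0.0269), the myosin light chain MYL12B (0.33, adjusted p = 0.0275) and RHOA itself (0.29, adjusted p = 0.0351). None of these 4 was called in more than 2 of 6 leave-one-out fits. KIF23, the kinesin partner of RACGAP1 in centralspindlin, did not pass and showed the pattern of ECT2, at 10.9, 12.5 and 11.4 TPM in siControl and 16.4, 6.97 and 8.23 TPM in siMAD2L1 (-0.21, adjusted p = 0.668; named after its values were seen).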

How the data were processed

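RNA from 6 SNU449 libraries was sequenced. The authors deposited 1 table of TPM, 1 column per library, and per the submitters' processing notes used fastp, HISAT2, DESeq2 1.16.1 and the build hg38. The sources used here name no read counter, annotation or strand setting. TPM keeps no depth, so depth is unknown and intervals that need it are left out. Nothing says that replicates came from separate cultures, so p-values cover only spread among libraries, which may be technical.

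Columns were matched to libraries by their names, NC for siControl and MAD for siMAD2L1. Values were taken as log2(TPM + 1), genes with a mean of at least 1 TPM were kept, and limma 3.58.1 (R 4.3.3) with an intensity trend compared the groups over all 14790 genes without covariates. Adjusted p-values are Benjamini-Hochberg. Fold changes understate the change of low genes. Positions, exon overlaps and longest transcripts came from GENCODE 29 (GRCh38), motif counts from Python 3.11.15, plots from matplotlib 3.10.9. The members and lists were chosen with earlier results of these data known. Named were all members, MAD2L1, CDKN1A and, of each further list, up to 4 called genes with the largest change; MYL12B, RHOA and KIF23 fall outside this rule and were chosen after their values were seen. In 10 simulations of this comparison (14790 genes, 200 changed, all above the median level, noise from each gene's residual SD), 29.8% of changes of 0.5 (log2) were recovered, 76.2% of 1, 91% of 1.5 and 97% of 2, with 4.57% false calls. The alternatives are given in the closing section.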

Additional observations from a re-analysis of the deposited data

How the results depend on the processing

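The 17 members called lower numbered 13 to 25 in the alternatives that kept all 6 libraries. Leaving out a library gave 11 to 24, the former without siControl replicate 1 and the latter without siMAD2L1 replicate 1, and a median log2 fold change of the members between -0.71 and -0.44. Of all genes tested, 188 to 1706 were then lower and 138 to 716 higher, of G2/M entry control 0 to 1 lower and 1 to 2 higher, of MuvB, DREAM and NF-Y 0 to 4 lower, of spindle assembly 0 to 6 lower, and of cytokinesis machinery 2 to 5 lower and 0 to 5 higher. Without a filter on low values 460 genes were lower and 267 higher, with 1 of G2/M entry control and 1 of cytokinesis machinery higher and 0 of MuvB, DREAM and NF-Y lower. Limma without trend called 655 genes lower and 297 higher, 0 of MuvB, DREAM and NF-Y lower and 0 of cytokinesis machinery higher. Library weights gave 3346 genes lower and 1514 higher, 1 member higher, and 7, 3, 7 and 4 genes lower in G2/M entry control, MuvB, spindle assembly and cytokinesis machinery, with 8 higher in the last. At an adjusted p of 0.01, 205 genes were lower and 154 higher, with 1 of G2/M entry control higher, 0 of MuvB lower, 1 of spindle assembly lower and 0 of cytokinesis machinery higher. With siMAD2L1 replicate 1 alone 555 genes were lower and 673 higher, 2 members higher, 4 of G2/M entry control higher and 0 of MuvB lower. The share of calls that were lower, 63.7%, became 50.5% under quantile normalization, 52.5% under upper-quartile scaling, 49.97% with the length trend removed and 73.2% without mitochondrial and the 20 highest genes; 17, 17, 15 and 17 of the members called lower were shared with the main result. The median of all genes, -0.08, was 0.00 under quantile normalization and -0.12 in the last. The cause of these shifts was not tested. Members whose sign turned, none of them called in the main result, were CDK1 (0.0464), MYBL2 (-0.15), ASPM (0.0711), NUSAP1 (0.14), ECT2 (0.60) and CEP55 (0.35) with siMAD2L1 replicate 1 alone; CDC25A with upper-quartile scaling (0.0178), quantile normalization (0.11), the length trend removed (0.0252) and library weights (0.25); and ANLN with library weights (-0.19) and with the 20 highest and mitochondrial genes left out of the scaling (-0.0126). Leaving out 1 library gave values of both signs for CDC25A (-0.23 to 0.12), WEE1 (-0.00329 to 0.28), MYBL2 (-0.0116 to 0.17), CDCA2 (-0.0172 to 0.36), ECT2 (-0.79 to 0.0363), ANLN (-0.35 to 0.32) and CEP55 (-0.35 to 0.0727). Depth is unknown, and genes near 1 TPM are the least precise.

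Over all genes tested, each library's deviation from its own group mean was correlated between the groups. These deviations correlated at 0.019, 0.009 and 0.063 in same-numbered libraries, and at -0.052 to 0.034 in the other pairs. Replicate 2 of siControl and replicate 1 of siMAD2L1 correlated best with each other, and the other libraries with their own number. Whether the replicate numbers mark pairs was not tested. With the replicate number as a block 532 genes were lower and 336 higher, 15 members were lower, and 0 of cytokinesis machinery were higher.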
